A study of Sus scrofa with 16 samples.

Results

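Branched-chain amino acid catabolism enzymes were examined in the subcutaneous adipose tissue of 16 pigs, 8 from a low residual feed intake line (low-RFI) and 8 from a high residual feed intake line (high-RFI). Of 10 genes considered, 6 had probes that carry the gene's symbol as their name in the scanner files and passed a detection limit, a flag for signal above background on 8 arrays or more: BCKDHA, BCKDHB, DBT, IVD, ALDH6A1 and PCCB. They are 6 of 4151 gene symbols measured. These 6 genes had 18 probes, out of 32097 probes analysed, and all 18 were flagged above background on all 16 arrays, so no probe lay near that limit. BCAT2, HIBCH, HIBADH and PCCA had no probe under that rule. Residual feed intake is the feed eaten beyond what maintenance and growth predict, and the low-RFI line stays under that prediction while the high-RFI line exceeds it. All pigs were sampled at 20 kg body weight, were fed freely and received no further treatment that the labels name, and each gave 1 Agilent 1-colour array. The labels number the pigs of each line from 1 to 8 and give these numbers no meaning. Replicates 5-8 were compared with replicates 1-4 as well as the lines with each other.

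Leucine, isoleucine and valine are first transaminated to branched-chain keto acids, which the mitochondrial branched-chain keto acid dehydrogenase complex then commits to oxidation. BCKDHA and BCKDHB encode the alpha and beta subunits of its decarboxylase component, and DBT encodes the transacylase core. Beyond the complex the pathways part: IVD oxidises isovaleryl-CoA from leucine, ALDH6A1 converts methylmalonate semialdehyde from valine, and PCCB is the beta subunit of propionyl-CoA carboxylase, which takes up the propionyl-CoA left by valine and isoleucine. In adipose tissue the pathway supplies carbon for fat synthesis in differentiated fat cells.

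The sequences of several probes bear on how far the probes of a gene can be read as separate measurements. BCKDHA probes 2 and 3 are the same 60-base sequence under 2 names, starting at base 191 of the named transcript, whereas BCKDHA probe 1 starts at base 1185. BCKDHB probes 1 and 2 overlap by 55 bases, shown in capitals, as are all 60 bases of the shared BCKDHA sequence. PCCB probes 1 and 2 overlap as well, by 57 bases, and are not printed. The 2 ALDH6A1 probes start at bases 1576 and 410 of the named transcript and share no stretch. All are given 5′ to 3′ as the scanner files list them.
BCKDHA probes 2 and 3: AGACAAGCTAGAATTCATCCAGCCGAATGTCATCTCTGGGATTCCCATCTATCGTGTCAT
BCKDHA probe 1: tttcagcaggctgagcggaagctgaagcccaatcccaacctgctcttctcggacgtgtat
BCKDHB probe 1: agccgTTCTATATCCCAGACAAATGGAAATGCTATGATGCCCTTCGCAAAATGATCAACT
BCKDHB probe 2: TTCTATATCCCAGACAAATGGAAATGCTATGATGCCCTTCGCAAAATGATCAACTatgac
ALDH6A1 probe 1: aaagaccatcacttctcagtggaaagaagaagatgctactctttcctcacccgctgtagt
ALDH6A1 probe 2: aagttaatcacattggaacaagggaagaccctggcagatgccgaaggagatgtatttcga

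Levels below are log2 processed signals minus the 75th percentile of the same array, so that 0 is the 75th percentile, and probes are numbered by falling mean level within a gene. Between 68.7% and 80.3% of spots were well above background on each array, and saturation was found on none. Precision is limited by the number of arrays. Adipocyte genes were measured for 12 of 12 listed, ADIPOQ, PLIN1, LEP and FABP4 among them. Several arrays stood apart in marker genes of other cell types, each given as the list's mean log2 deviation from the 16-array mean. Low-RFI replicate 8 was at 7.29 for the 11 of 18 skeletal muscle genes measured, where the next array was at 1.23. High-RFI replicates 6 and 2 were at 3.51 and 2.23 for the 4 of 8 epithelial genes measured, and high-RFI replicate 5 was at 1.57 for the 4 of 7 macrophage genes measured and 1.69 for the 6 of 7 T and NK cell genes. In whole tissue, fewer cells of a type and less RNA per cell cannot be told apart.

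The probes of a gene followed each other closely. Over 22 within-gene pairs of probes, Pearson's r over arrays had a median of 0.97. The pairs ran over 16 arrays, except the 4 with PCCB probe 4, which ran over 14 because it lacked a value on low-RFI replicates 1 and 4. The BCKDHA probes of identical sequence gave r = 0.98, and their difference had an SD of 0.078 over arrays and never exceeded 0.18. That is the repeat error of 1 sequence on these arrays, and it was small beside the 1.25 that separated the lowest and highest pig on BCKDHA probe 3. The overlapping BCKDHB probes gave r = 0.99, but BCKDHB probes with no shared base also correlated at 0.98 or above. The loosest pair was IVD, with r = 0.84 and an SD of the difference of 0.28.

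Among the subunits of the dehydrogenase complex, BCKDHA varied least over pigs, with a range of 0.98 on probe 1, against 1.85 for BCKDHB and 1.64 for DBT. BCKDHA probe 1 had a lowest, median and highest level of 1.80, 2.05 and 2.36 in low-RFI pigs, against 1.85, 2.39 and 2.77 in high-RFI pigs. The ranges overlapped, although 6 of 8 low-RFI pigs lay below the high-RFI mean. BCKDHB probe 1, for the other subunit of the same component, had 1.40, 2.48 and 3.21 in low-RFI pigs, against 1.35, 2.58 and 2.84 in high-RFI pigs. The lines overlapped almost fully, and 4 pigs, low-RFI replicates 1 and 3 and high-RFI replicates 5 and 7, lay apart below the other 12, at 1.70, 1.40, 1.47 and 1.35. DBT probe 1 had 0.65, 1.13 and 1.67 in low-RFI pigs, against 0.03, 1.10 and 1.52 in high-RFI pigs. High-RFI replicates 5 and 7 were again the lowest, at 0.03 and 0.33.

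The enzymes downstream of the complex showed the same low pigs in part. IVD probe 1 had a lowest, median and highest level of -0.16, 0.56 and 1.38 in low-RFI pigs, against -0.17, 0.68 and 1.28 in high-RFI pigs. The lowest were high-RFI replicate 5 and low-RFI replicate 8, the array high in muscle genes. ALDH6A1 probe 1 had -1.26, -0.61 and 0.17 in low-RFI pigs, against -0.98, -0.22 and 0.28 in high-RFI pigs. Its lowest pig was low-RFI replicate 3, with high-RFI replicate 7 next. PCCB probe 1 had 4.69, 4.95 and 5.54 in low-RFI pigs, against 4.30, 5.04 and 5.39 in high-RFI pigs, and high-RFI replicates 7 and 5 were lowest.

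**Figure D1:**
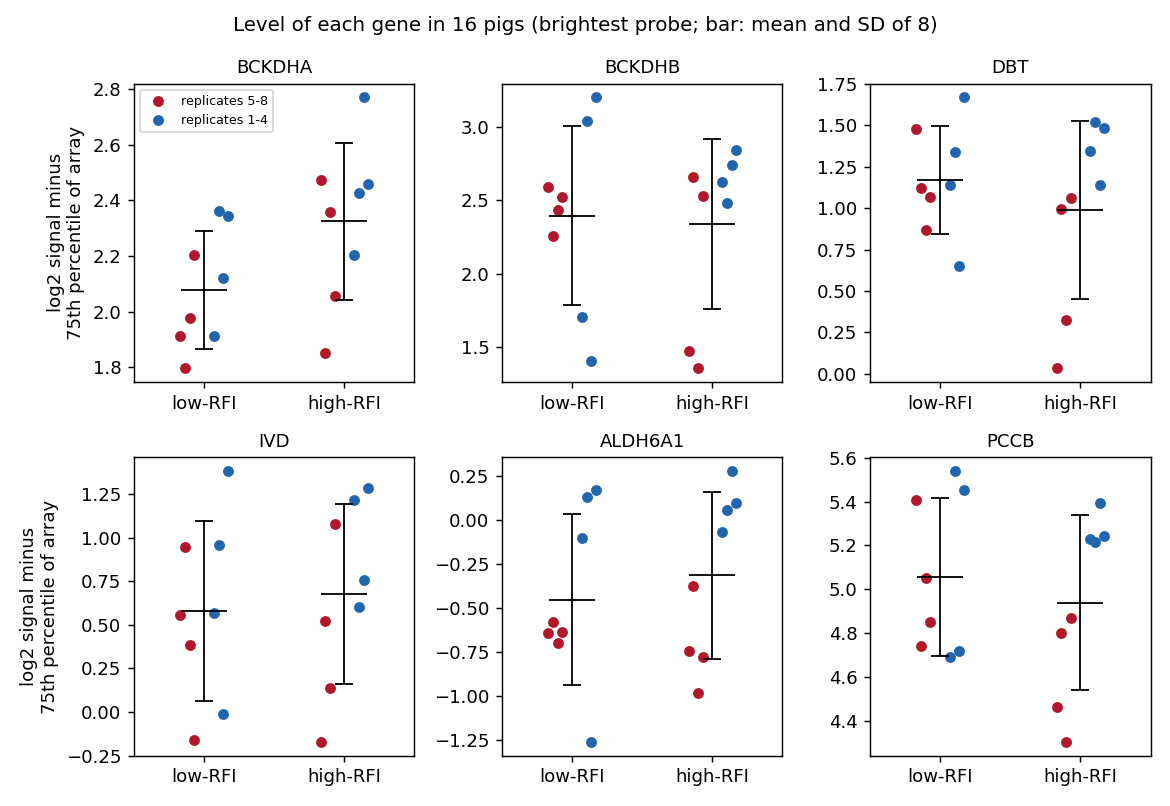
Level of each of the 6 genes (brightest probe, log2 signal minus the array's 75th percentile) in each pig, low-RFI left of high-RFI, with replicates 5-8 in red and replicates 1-4 in blue and the mean and SD of 8 pigs as a bar. The lines overlap for every gene, and ALDH6A1 separates the replicate numbers more than the lines, with low-RFI replicate 3 at -1.26 among the low values.

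The first comparison, the one the study's design states, asks whether the lines differ in adipose gene expression. None of the 18 probes differed between the lines (limma, two-sided, Benjamini-Hochberg adjusted over 32097 probes, adjusted p = 0.9997 for all 18), and 0% of all probes passed. At an unadjusted p under 0.05 there were 0 of 18 member probes, beside 1161 of the 32097. The study's design gives 8 pigs in each line, 1 array each, so the spread is that between pigs.

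The BCKDHA probes came nearest to a line difference. Probe 1 averaged 2.08 ± 0.21 in low-RFI pigs and 2.32 ± 0.28 in high-RFI pigs (SD, n = 8 each), and low-RFI minus high-RFI was -0.25 (SE 0.13, 95% interval -0.51 to 0.02). Probes 2 and 3, which share their sequence, gave -0.33 and -0.31. For BCKDHB probe 1 the difference was 0.06 (SE 0.28, interval -0.54 to 0.65), and for DBT probe 1 it was 0.18 (SE 0.21, interval -0.27 to 0.63). These intervals leave room for differences of either sign.

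Downstream, IVD probe 1 differed by -0.10 (SE 0.24), ALDH6A1 probe 1 by -0.14 (SE 0.23) and PCCB probe 1 by 0.12 (SE 0.18) between low-RFI and high-RFI pigs. The second ALDH6A1 probe gave 0.01, and the 5 PCCB probes lay between 0.03 and 0.13. Of the 18 probes, 12 were positive, with a median of 0.05, against a median of 0.0035 over all probes, of which 51.0% were positive. By the brightest probe of each of the 6 genes, 3 were positive and 3 negative, with a median of -0.02. Within the 4 slides, each with 2 arrays of each line, the difference for BCKDHA probe 1 was 0.14, -0.54, -0.45 and -0.14, and for DBT probe 1 it was -0.07, 0.53, -0.02 and 0.27.

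The second comparison sets the higher replicate numbers against the lower, with line as a covariate. All 18 member probes were lower in replicates 5-8, with a median difference of -0.40, while the median over all probes was -0.03 and 55.1% of all probes were lower. Only 1 of the 18 passed the adjusted threshold, 5.56% beside 5.03% of all probes (3.18% lower and 1.86% higher), which is close to the background. At an unadjusted p under 0.05 there were 12 of 18 member probes, beside 7508 of 32097. The 18 probes come from 6 genes that move together and do not count as 18 measurements.

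ALDH6A1 was the gene that passed. Probe 2 had a lowest, median and highest level of -2.56, -2.03 and -1.80 in replicates 5-8, against -2.43, -1.22 and -0.99 in replicates 1-4. Every pig of replicates 5-8 lay below the mean of replicates 1-4, and the groups overlapped only through low-RFI replicate 3, at -2.43. The difference was -0.70 (SE 0.18, limma adjusted p = 0.041), a ratio of 0.616 (95% interval 0.470 to 0.806). Probe 1, from another stretch of the transcript, gave -0.59 (SE 0.18, adjusted p = 0.065) and did not pass. The call was lost when any 1 of 15 arrays was left out, although the difference stayed between -0.87 and -0.62 in all 16 omissions. Over 24 alternatives, not counting those within a slide or a line, the adjusted p lay between 2.6e-04 and 0.70. The difference lay between -0.87 and -0.34 over these, and that of -0.87 was without low-RFI replicate 3. Without that array 6 of 18 member probes passed, beside 14.8% of all probes.

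The other genes were lower in replicates 5-8 without passing. PCCB probe 1 had 4.30, 4.83 and 5.41 in replicates 5-8, against 4.69, 5.24 and 5.54 in replicates 1-4, a difference of -0.37 (SE 0.16, adjusted p = 0.18). DBT probe 1 had 0.03, 1.03 and 1.48 in replicates 5-8, against 0.65, 1.34 and 1.67 in replicates 1-4, a difference of -0.42 (SE 0.19, adjusted p = 0.20). The groups overlapped for both genes, and 7 of 8 pigs of replicates 5-8 lay below the mean of replicates 1-4. IVD probe 1 differed by -0.43 (SE 0.23, adjusted p = 0.26), BCKDHA probe 1 by -0.25 (SE 0.11, adjusted p = 0.20) and BCKDHB probe 1 by -0.28 (SE 0.28, adjusted p = 0.59). BCKDHB was the least separated, with 4 of 8 pigs below that mean. Within the 4 slides, each with 2 arrays of each set of pigs, ALDH6A1 probe 1 differed by -0.57, -0.67, -0.20 and -0.93, and the brightest probes of the 6 genes were all negative in every slide except BCKDHA in the second, at 0.02. By line, ALDH6A1 probe 1 differed by -0.81 within high-RFI pigs and by -0.37 within low-RFI pigs. Within high-RFI pigs 5 of 18 member probes passed, beside 4.71% of all probes, and within low-RFI pigs 0 of 18, beside 0%, with 4 pigs against 4 in each.

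**Figure D2:**
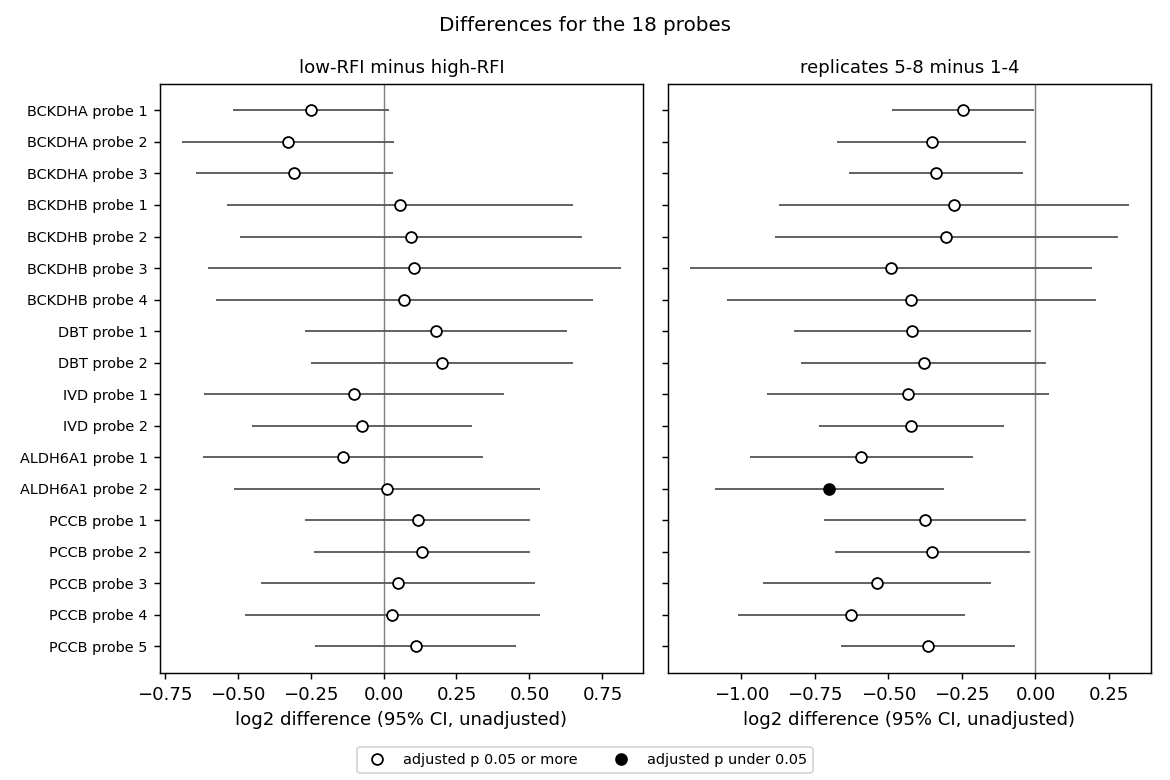
Log2 difference with unadjusted 95% interval for each of the 18 probes, low-RFI minus high-RFI at left and replicates 5-8 minus 1-4 at right. No probe passes between the lines, every probe is below 0 between the replicate numbers, and the filled point is ALDH6A1 probe 2 at -0.70.

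The arrays on which other cell types' genes were high bear on this comparison. In replicates 5-8 the mean of the macrophage genes ranged from -0.66 to 1.57, against -0.60 to 0.30 in replicates 1-4, and that of the muscle genes from -0.94 to 7.29, against -0.81 to -0.45. The T and NK cell genes ranged from -1.12 to 1.69 in replicates 5-8, against -0.55 to 0.63 in replicates 1-4, and the epithelial genes from -1.17 to 3.51, against -0.95 to 2.23. The adipocyte list ranged from -0.24 to 0.29 in replicates 5-8, against -0.33 to 0.28 in replicates 1-4. Without the 4 arrays that stood apart, 0 of 18 member probes and 0 of all probes passed, with fewer arrays tested. The part of these cell types in the result was not tested.

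The line difference itself was set against the replicate numbers. It was more positive in replicates 5-8 than in replicates 1-4 for all 18 probes, by 0.07 to 0.90, beside 50.9% of all probes. These 18 come from 6 genes and are not separate measurements. None passed the test of that difference (limma interaction, adjusted p from 0.73 to 0.96, with 0% of all probes passing). At an unadjusted p under 0.05 there were 0 of 18, beside 2181 of 32097. DBT probe 1 had the smallest p: low-RFI minus high-RFI was 0.53 in replicates 5-8 and -0.17 in replicates 1-4, a difference of 0.70 (SE 0.35, 95% interval -0.04 to 1.45). BCKDHB probe 1 gave 0.45 in replicates 5-8 and -0.33 in replicates 1-4. BCKDHA probe 1 gave -0.21 in replicates 5-8 and -0.28 in replicates 1-4.

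How the genes varied together over pigs was read from the 15 pairs of the 6 genes, each by its brightest probe. The 10 pairs without BCKDHA all correlated, with Pearson's r from 0.64 to 0.86, Spearman's rho from 0.66 to 0.88 and permutation p adjusted over the 15 pairs from 1.5e-04 to 0.013. BCKDHB and PCCB were the closest, at r = 0.86 and rho = 0.88 (adjusted permutation p = 1.5e-04 for each, from the smallest p that 100000 resamples can give). DBT followed PCCB at r = 0.83 and BCKDHB at r = 0.82. Without the 2 arrays farthest from the median of the first gene, these 10 pairs kept r between 0.50 and 0.83. Within sets of 8 arrays, 0 of 15 pairs passed in replicates 5-8 and 6 of 15 in replicates 1-4. Taken as deviations from the means of each line within each set, 4 of 15 pairs passed, with r from 0.52 to 0.88 over the 10 pairs without BCKDHA. For scale, r above 0.7 with BCKDHB was found for 3.07% of all probes, with ALDH6A1 for 6.08% and with PCCB for 4.71%.

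BCKDHA passed in no pair with the others, and whether its pairs differ from the rest was not tested. Its 5 pairs had r from -0.04 with DBT to 0.44 with ALDH6A1, and rho from 0.10 to 0.36 (adjusted permutation p from 0.12 to 0.89). With BCKDHB, whose product it pairs with in the enzyme, r was 0.13 and rho 0.23. The 2 other BCKDHA probes tracked probe 1 at r = 0.92 and 0.95, so the 3 probes agreed on which pigs were high and low for BCKDHA.

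**Figure D3:**
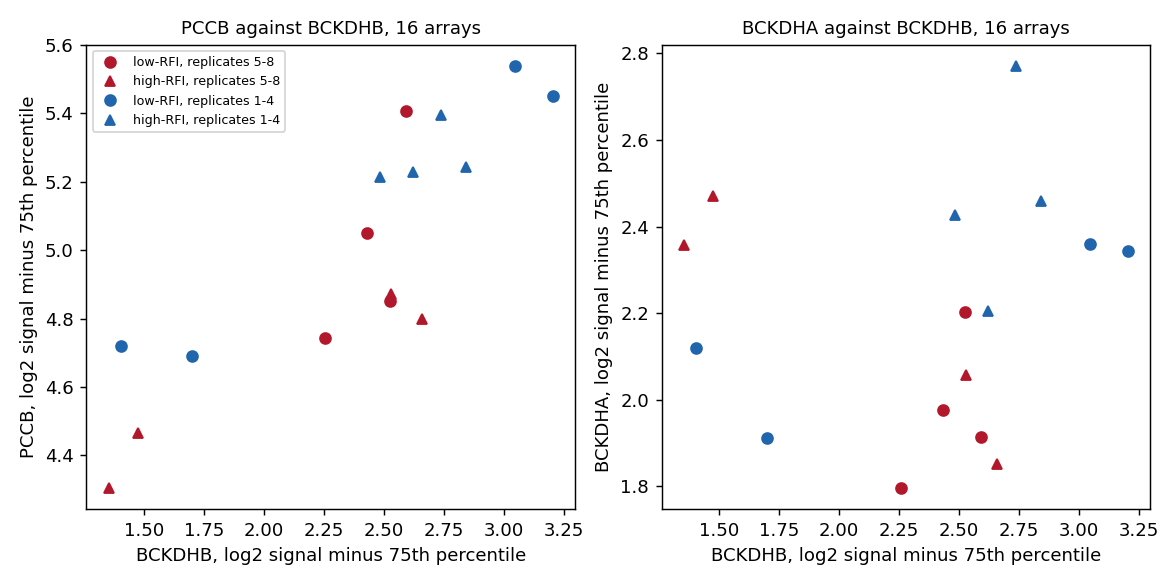
PCCB (left) and BCKDHA (right) plotted against BCKDHB over 16 arrays, all as log2 signal minus the array's 75th percentile, with circles for low-RFI, triangles for high-RFI, red for replicates 5-8 and blue for replicates 1-4. PCCB follows BCKDHB (r = 0.86), while r is 0.13 for BCKDHA, with high-RFI replicates 5 and 7 at low BCKDHB and high BCKDHA.

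Within replicates 5-8, BCKDHA ran against the other genes, at r from -0.83 to -0.65, and within replicates 1-4 it ran with them, at r from 0.31 to 0.73 (8 arrays each). None of these 10 values passed the permutation test after adjustment within its set of pigs, and the change of sign was not tested. With BCKDHB and DBT the negative values rested on high-RFI replicates 5 and 7, without which r was 0.25 and -0.16 over 6 arrays. With IVD the value without the 2 farthest arrays was -0.84, with ALDH6A1 -0.56 and with PCCB -0.57. In replicates 1-4, the r with BCKDHB and PCCB rested on low-RFI replicates 1 and 3, without which it was -0.12 and 0.14. Without the 2 farthest arrays, it was 0.14 with DBT, 0.14 with IVD and 0.79 with ALDH6A1. The 10 pairs without BCKDHA stayed positive in both sets, with medians of 0.55 in replicates 5-8 and 0.81 in replicates 1-4.

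**Figure D4:**
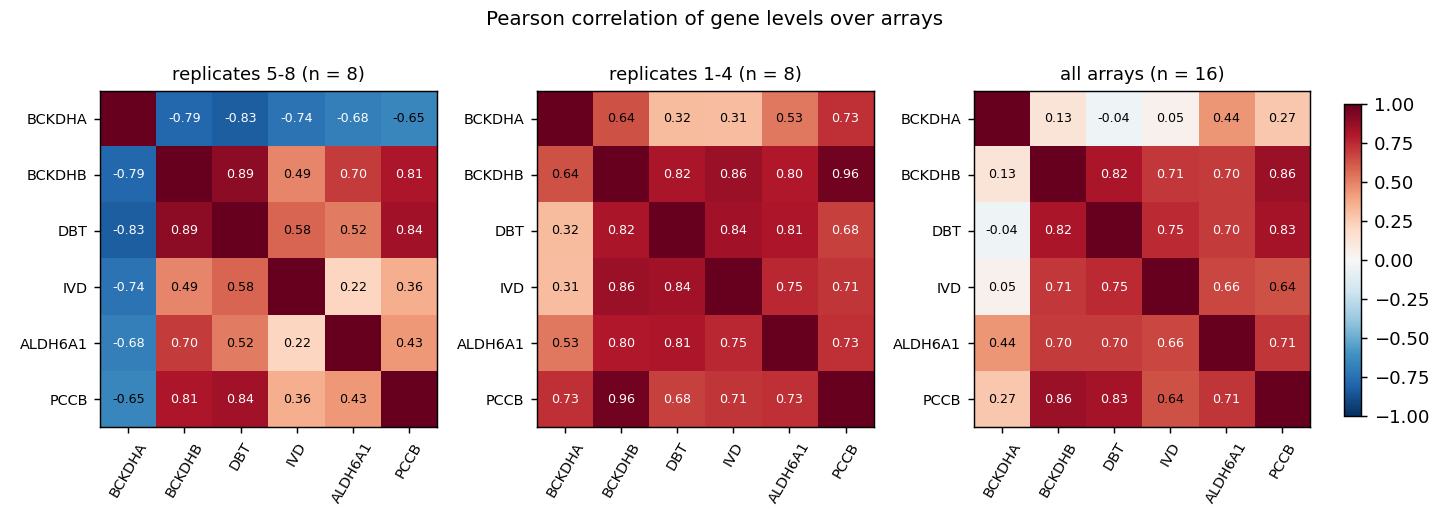
Pearson correlation between gene levels over arrays, within replicates 5-8, within replicates 1-4 and over all 16 arrays, coloured from -1 (blue) to 1 (red). The BCKDHA row is negative in replicates 5-8 (-0.83 to -0.65), positive in replicates 1-4 (0.31 to 0.73) and between -0.04 and 0.44 over all arrays.

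The pigs that set this pattern can be named. The mean deviation of the 6 genes was lowest in high-RFI replicates 7 and 5 and low-RFI replicate 3, at -0.57, -0.56 and -0.54, and highest in low-RFI replicate 4, high-RFI replicate 4 and low-RFI replicate 2, at 0.56, 0.42 and 0.41. Both lines thus held low and high pigs. The macrophage and the T and NK cell genes were at -0.07 and 0.59 in high-RFI replicate 7, at 1.57 and 1.69 in high-RFI replicate 5 and at 0.23 and 0.20 in low-RFI replicate 3. High-RFI replicate 7 was also at 0.46 for the muscle and 0.64 for the epithelial genes. Low-RFI replicate 8, with the muscle genes at 7.29, had a mean deviation of -0.17 for the 6 genes. The part of these cell types in the low levels was not tested. Over all probes, low-RFI replicate 3 correlated at a mean r of 0.978 with replicates 5-8 and 0.972 with the other replicates 1-4. High-RFI replicates 5, 6 and 8 were likewise slightly nearer to the other set of pigs than to their own.

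Of 42 relations between a gene and a cell type list over the 16 arrays, none passed adjustment. The nearest was PCCB with the adipocyte list, at r = 0.67 and rho = 0.71 (permutation p adjusted over 42 relations = 0.22 and 0.10), and r = 0.72 without the 2 arrays farthest in the adipocyte list. Within replicates 5-8 that r was 0.43, and within replicates 1-4 it was 0.86. With the same list r was 0.55 for BCKDHB, 0.45 for IVD, 0.41 for DBT, 0.32 for ALDH6A1 and 0.27 for BCKDHA.

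**Figure D5:**
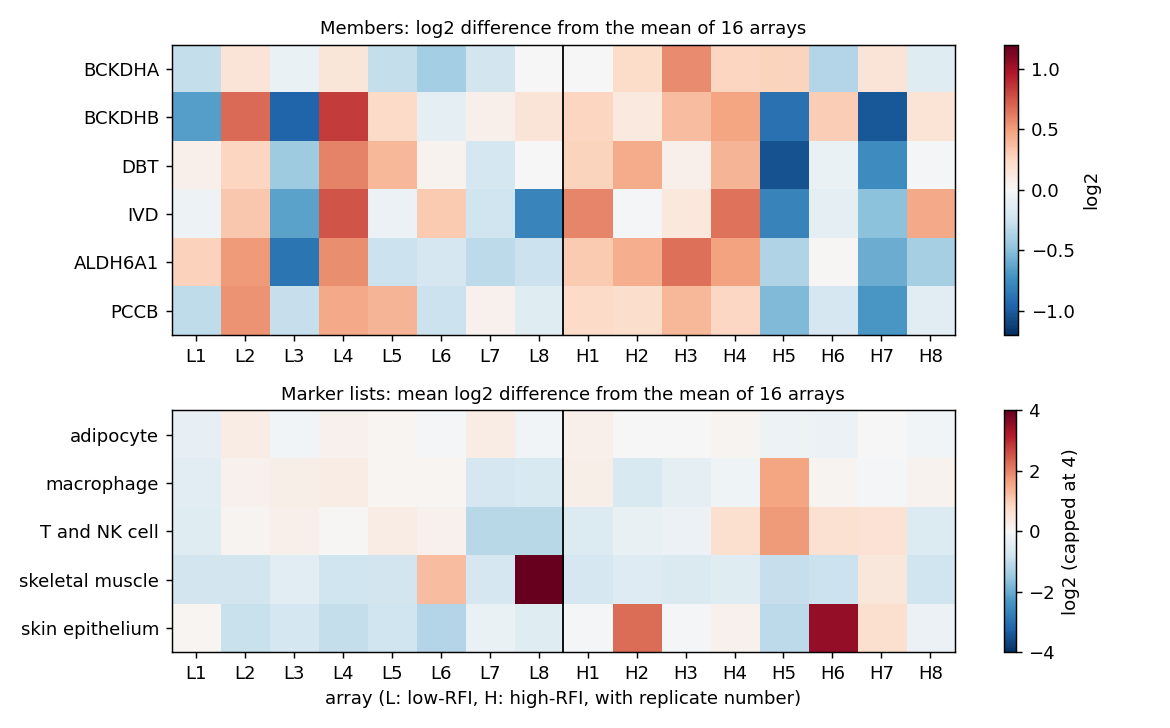
Log2 deviation of each gene from its 16-array mean (top) and mean deviation of 5 marker lists (bottom, colour capped at 4) on each array, low-RFI replicates left of high-RFI replicates. Low-RFI replicate 3 and high-RFI replicates 5 and 7 are below the mean for BCKDHB, DBT, IVD, ALDH6A1 and PCCB, and the muscle genes reach 7.29 on low-RFI replicate 8.

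The genes whose brightest probe was most like the mean deviation of the 6 members, among 4047 genes with no missing value over the 16 arrays, were PRDX6 at r = 0.97, DHRS7 at 0.97, SGCB at 0.96, PHYH at 0.95 and ACADL at 0.94. PRDX6 is a peroxiredoxin, DHRS7 a short-chain dehydrogenase, SGCB a sarcoglycan, PHYH the peroxisomal phytanoyl-CoA hydroxylase and ACADL the long-chain acyl-CoA dehydrogenase.

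Of 26 names of other enzymes of these pathways and of ketone and propionate handling, 13 were measured. None differed between the lines, and 3 were lower in replicates 5-8 with 0 higher, beside the 3.18% lower over all probes. ALDH2, the mitochondrial aldehyde dehydrogenase, averaged 4.06 ± 0.32 in replicates 5-8 and 5.34 ± 0.49 in replicates 1-4, a difference of -1.29 (SE 0.21, limma adjusted p = 0.012) with 2 of 16 values missing. OXCT1, which activates ketone bodies, differed by -0.76 (SE 0.21, adjusted p = 0.048), and HADH, a 3-hydroxyacyl-CoA dehydrogenase, by -0.54 (SE 0.14, adjusted p = 0.041). Over the 13 genes, 12 were negative with a median of -0.37. DLD, the component that the dehydrogenase complex shares with its relatives, differed by -0.01.

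Regulators, transporters and related enzymes gave no call in either comparison. KLF15, a transcription factor known in mouse to drive amino acid breakdown, differed by -0.74 (SE 0.24, adjusted p = 0.081) between replicates 5-8 and 1-4 with 1 of 16 values missing, and PPARA by -0.23, of 3 regulators measured. Of 5 amino acid transporters, SLC7A7 differed by 0.50 (adjusted p = 0.17) and SLC1A5 by 0.24. Of 3 measured genes of the pyruvate and oxoglutarate dehydrogenases, PDHA1 differed by -0.20 and DLST by -0.12. Among 3 other biotin enzymes, PC, pyruvate carboxylase, differed by -0.48 (adjusted p = 0.068) and ACACB by -0.29. Of the cell type lists, the adipocyte list had 1 of 12 genes past the threshold between replicates 5-8 and 1-4, beside 5.03% of all probes. That gene was AQP7, the glycerol channel, at -0.67 (SE 0.15, limma adjusted p = 0.026). Over the 12 genes, 9 were lower in replicates 5-8 and 3 higher, with a median of -0.13. The muscle, epithelial, macrophage, T and NK cell, endothelial (7 genes) and fibroblast (2 genes) lists had 0 in either comparison.

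Some probes outside the rule carry a member only in their description. BCAT2, the mitochondrial transaminase of the first step, had 2, both above background on all 16 arrays. The brighter had a lowest, median and highest level of 3.12, 3.92 and 4.23 in low-RFI pigs, against 3.31, 3.94 and 4.19 in high-RFI pigs, and low-RFI minus high-RFI was -0.03 (SE 0.16). It correlated with BCKDHB at r = 0.95 and with BCKDHA at r = 0.21 over the 16 arrays, and the dimmer at 0.75 and 0.22. Between replicates 5-8 and 1-4 the brighter BCAT2 probe differed by -0.11 (SE 0.16, limma adjusted p = 0.72). The dimmer differed by -0.07 (SE 0.08, limma adjusted p = 0.62). Of 2 other probes described as ALDH6A1, 1 correlated with ALDH6A1 probe 1 at r = 0.96. It differed by -0.42 (SE 0.18, limma adjusted p = 0.17) between replicates 5-8 and 1-4. The other was above background on 0 of 16 arrays, correlated with ALDH6A1 probe 1 at r = 0.16 and was not tested. A probe described as similar to a small part of human HIBCH, a hydrolase of valine breakdown, had 4.39, 4.66 and 4.91 in low-RFI pigs, against 4.41, 4.60 and 4.94 in high-RFI pigs. It ran against the members, at r = -0.70 with BCKDHB, -0.54 with PCCB and -0.53 with DBT, and differed by 0.07 (SE 0.10, adjusted p = 0.70) between replicates 5-8 and 1-4. Its identity as HIBCH rests on that description alone. Probes whose descriptions name IVD and DBT by similarity correlated with those genes at r = 0.21 and 0.09, and are not read as measures of them here.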

How the data were processed

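Scanner signals came from Agilent Feature Extraction 10.7.3.1, per the file headers. The deposited processed intensities had background subtracted and spatial trends removed by that software, per the file headers, without scaling between arrays. The labels' protocols give 150 ng of RNA as the input to amplification and Cy3 labelling. The authors' value table holds log2 values, which were found to equal the log2 processed signal less the median of the spots it lists on that array. The submitters' processing notes name R 2.10.0. The genome build is not given in the sources used here.

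Log2 processed signals were scaled to each array's 75th percentile, spots of a probe averaged, and control and outlier spots left out. Probes well above background on at least 8 arrays with at least 6 values per line were kept (32097). Differences were tested with limma 3.58.1 in R 4.3.3 (two-sided, Benjamini-Hochberg over all probes, threshold 0.05). The line fit alone was also run on simulated data with known changes, and its outcome is not given here. The line comparison had line as its only term. The brightest kept probe stands for a gene. Correlations used 100000 permutations. The members, lists and comparisons were chosen with earlier results of these data known. All members were named, and from each other pathway list the genes that passed, or the 2 with the smallest p. DLD, which did not pass, was named outside this rule. Cell type lists are given as list means, with AQP7, which passed, and a few adipocyte markers named outside this rule. Alternatives were other backgrounds, scalings, filters, weights, blocks and omitted arrays.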

Additional observations from a re-analysis of the deposited data

How the results depend on the processing

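For the lines, 0 member probes were called under any alternative run, while all probes gave 0 to 1 call with 1 array left out and 5 within replicates 1-4. Background correction by normexp moved the median of all probes to -0.12 between low-RFI and high-RFI pigs, beside which BCKDHA probe 1 was at -0.15. The uncalled line differences changed sign as follows. BCKDHB was -0.066 with array weights, -0.33 within replicates 1-4, -0.27 within slide 3 and -0.041 without the 4 arrays high in muscle, epithelial or immune genes, an alternative chosen after seeing the data. DBT was -0.17 within replicates 1-4, -0.066 within slide 1 and -0.017 within slide 3, and PCCB -0.17 within replicates 1-4 and -0.043 within slide 3. IVD was 0.040 within replicates 5-8 and 0.35 within slide 2, ALDH6A1 0.079 within replicates 5-8 and 0.016 within slide 4, and BCKDHA 0.14 within slide 1. With 1 array left out, BCKDHB ranged from -0.083 to 0.20 and IVD from -0.22 to 0.0045.

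Between replicates 5-8 and 1-4, 1 member probe and 1616 probes in all passed. With normexp these were 0 and 17, without a filter 0 and 838, and with array weights 9 and 5333. Within each slide, within low-RFI pigs and without the 4 arrays they were 0 and 0, and within high-RFI pigs 5 and 1512 (4.71% of all). With 1 array left out they ranged from 0 to 6 and from 573 to 4746, the highest without low-RFI replicate 3. BCKDHB was 0.11 within low-RFI pigs and BCKDHA 0.023 within slide 2, against negative values otherwise. Quantile scaling, the deposited value table, the filter on all 16 arrays and slide as a fixed term left 1 member probe called.

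The numbers shared by the lines were not found to pair the pigs: 3 of 8 same-numbered pairs correlated above 0.1, and 1 of 8 pigs matched best with its own number. With the replicate block, the lines still gave 0 member probes and 0 probes, and the interaction gave 0 and 1. The uncalled interaction of BCKDHA was -0.0045 with quantile scaling, -0.018 without the 4 arrays, and from -0.042 to 0.16 with 1 array left out.

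Of 15 pairs, 10 passed, against 6 within replicates 1-4, 0 within replicates 5-8 and 4 as deviations from line and set means, where fewer arrays or removed group differences enter. BCKDHA with BCKDHB was -0.047 with quantile scaling and -0.79 within replicates 5-8, and with IVD -0.064, -0.74 and, as deviations, -0.34. Within replicates 5-8 BCKDHA was at -0.68 with ALDH6A1 and -0.65 with PCCB. BCKDHA with DBT was 0.32 within replicates 1-4 and 0.077 without the 4 arrays. The cause of these changes was not tested.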
